A study of Mus musculus with 2 samples.

Results

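The exportins are the carriers that take proteins and RNAs out of the nucleus, and 8 genes of their machinery were followed here: Xpo1, Xpo4, Xpo5, Xpo6, Xpo7, Xpot, Cse1l and Ranbp3. They were chosen by symbol, all 8 were found among the 32285 genes of the tables, and all 8 had at least 50 UMIs (unique molecular identifiers, counted molecules) over both libraries, the minimum that 10393 genes met. Ranbp3 is not an exportin itself but a cofactor of exportin 1. The data are single-cell transcriptomes of mouse myeloid-derived suppressor cells, immature myeloid cells that restrain T cells, grown in vitro for 4 days with IL-6 and GM-CSF at 40 ng/mL each. They grew either in DMSO alone, the solvent, or in selinexor at 50 nM, a covalent inhibitor of exportin 1. For the mice, neither strain, sex, age nor tissue of origin is given by the labels. Both cultures were tagged, sorted for live CD11b+ cells and pooled before droplet capture.

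An exportin binds its cargo in the nucleus together with Ran in its GTP-bound form, crosses the nuclear pore and lets go when GTP is hydrolysed in the cytoplasm. Exportin 1 has the widest cargo, proteins with a leucine-rich export signal, and selinexor occupies the groove that binds this signal. The others serve narrower cargo. In blood cells the XPO1 transcript has been used as a marker of exposure to this class of inhibitor.

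Kept were 1743 DMSO cells (14222344 UMIs) and 1967 selinexor cells (12841480 UMIs). Median depth was 7788 and 3984 UMIs per cell, so shares of cells with a transcript are given below also at equal depth. The CD11b gene Itgam had 4345 and 5294 UMIs, while T, B and NK cell markers were sparse, at 0.773 to 7.52 summed CPM (UMIs scaled to a common library total) in DMSO cells and 1.17 to 7.01 in selinexor cells. Each group is 1 library. There is no spread between cultures and no test, and all intervals are 95% intervals for counting error only.

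Xpo1 was 3.01-fold higher in the selinexor library (interval 2.80 to 3.25, log2 ratio 1.59). The DMSO level was 66.4 CPM (62.2 to 70.7) on 944 UMIs, and the selinexor level 199.98 CPM (192.3 to 207.9) on 2568 UMIs. Among the 10393 measured genes its log2 ratio was number 99 from the highest, and 0.943% of genes lay above it. No single cell carried the difference, since the cell with the most Xpo1 held 0.953% of its UMIs in the DMSO library and 0.506% in the selinexor library. Xpo1 (ENSMUSG00000020290) is protein-coding and lies at chr11:23256041-23298249 of mm10, plus strand. Sums of cell type markers moved beside it. Monocyte markers, 7 of 7 detected, summed to 1249 CPM in DMSO and 2370 CPM in selinexor cells, early neutrophil markers (5 of 5 in the tables) to 1265 and 504 CPM, and megakaryocyte markers to 32.8 and 4.98 CPM. Basophil or mast cell markers summed to 31.2 CPM (444 UMIs) with DMSO and 1.17 CPM (15 UMIs) with selinexor, eosinophil markers to 12.9 and 37.1 CPM, and stem or progenitor markers to 14.8 and 36.3 CPM. Such sums need not mean cells of that type. The megakaryocyte list shares Pf4 with the macrophage list, and 385 of its 467 DMSO UMIs lay in cluster 7, described further on. Of the 476 eosinophil marker UMIs with selinexor, 320 lay in intermediate neutrophil-like cluster 6, and 3 of 5 markers had none. The part of these marker shifts in the library ratios was not tested, and ratios within clusters are given further on.

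The other 7 genes had smaller log2 ratios, all above 0, as were those of 6638 of the 10393 measured genes. The next was Xpo6, the exporter of actin bound to profilin, at 28.1 CPM in DMSO cells on 400 UMIs and 45.2 CPM in selinexor cells on 581 UMIs, log2 ratio 0.69 (0.50 to 0.87). Xpo1 and Xpo6 were the 2 of 8 members at least 1.5-fold higher, a size that 12.4% of all measured genes reached, and 0 of 8 were at least 1.5-fold lower, against 4.71% of genes. For Xpo6 that size depends on the processing. Its log2 ratio was 0.55 with TMM scaling and 0.54 with median-of-ratios scaling, both under the 0.58 that a 1.5-fold difference makes, and 0.57 after thinning every cell to 2000 UMIs. With both libraries weighted to the same mix of cells it was 0.46 for the joint clusters and 0.62, still past 1.5-fold, for clusters centred per library.

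Xpo4, which carries the translation factor eIF5A and Smad3, stood at 15.2 CPM (216 UMIs) with DMSO and 20.8 CPM (267 UMIs) with selinexor, log2 ratio 0.45 (0.19 to 0.72). Xpo7, an exporter of broad cargo, had 279 UMIs (19.6 CPM) and 342 UMIs (26.6 CPM), a log2 ratio of 0.44 (0.21 to 0.67). Ranbp3, which strengthens the binding of exportin 1 to its cargo, had 339 UMIs (23.8 CPM) and 369 UMIs (28.7 CPM), a log2 ratio of 0.27 (0.05 to 0.49). These intervals lie above 0, as they did for 36.4% of all measured genes, whose median log2 ratio was 0.14.

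The 3 remaining exporters had intervals that reach 0 or below. Xpot, the exporter of tRNAs, had 275 UMIs (19.3 CPM) and 293 UMIs (22.8 CPM), a log2 ratio of 0.24 (-0.0035 to 0.48). Xpo5, which takes precursor microRNAs to the cytoplasm, had 230 UMIs (16.2 CPM) and 236 UMIs (18.4 CPM), a log2 ratio of 0.18 (-0.08 to 0.45). Cse1l, which returns importin alpha to the cytoplasm, had 330 UMIs (23.2 CPM) and 326 UMIs (25.4 CPM), a log2 ratio of 0.13 (-0.10 to 0.35). Cse1l and Xpo5 thus lay within 0.05 of the median gene. On mm10 the 7 genes lie on 5 chromosomes other than that of Xpo1: Xpo4 at chr14:57577521-57665430, Xpo5 at chr17:46202782-46243598, Xpo6 at chr7:126101715-126200501, Xpo7 at chr14:70654246-70766628, Xpot at chr10:121587380-121626332, Cse1l at chr2:166906040-166946389 and Ranbp3 at chr17:56673294-56711764. Xpo5, Cse1l and Ranbp3 are on the plus strand and the other 4 on the minus strand.

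**Figure D1:**
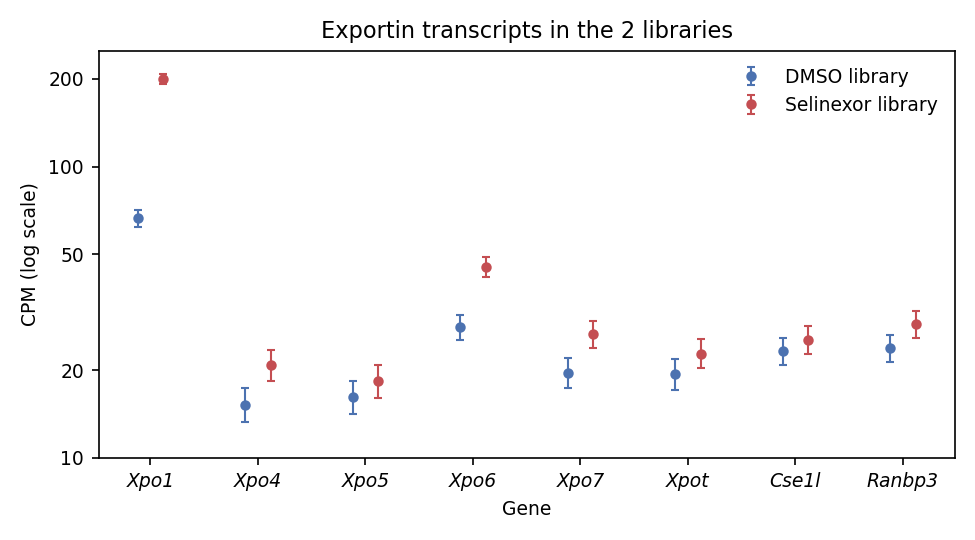
Level of each gene in CPM (log axis) in the DMSO library (blue) and the selinexor library (red), with 95% Poisson intervals. The Xpo1 pair, 66.4 and 199.98 CPM, stands furthest apart; levels of different genes are not compared, since they are not adjusted for length.

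The gap between Xpo1 and each of the other genes was larger than counting error. A difference between 2 log2 ratios does not depend on how the libraries are scaled to each other. The log2 ratio of Xpo1 exceeded that of Xpo6 by 0.91 (0.69 to 1.12) and that of Cse1l by 1.46 (1.22 to 1.71). The differences from the other 5 genes lay between 1.14 (Xpo4) and 1.41 (Xpo5). Summed, the 7 genes had 2069 and 2414 UMIs in the DMSO and selinexor libraries, log2 ratio 0.37 (0.28 to 0.46). Xpo1 made up 31.3% (29.7 to 33.0) of all UMIs of the 8 genes in the DMSO library and 51.5% (50.1 to 52.9) in the selinexor library.

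**Figure D2:**
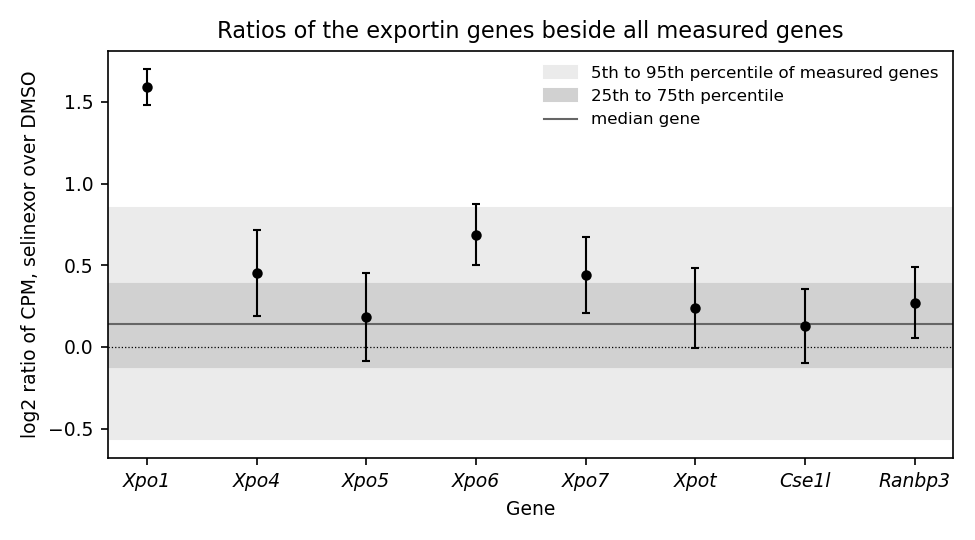
Log2 ratio of CPM, selinexor over DMSO, of each gene (points, 95% counting intervals), over the 5th to 95th and 25th to 75th percentiles of 10393 measured genes (grey bands) and their median (line). Xpo1 at 1.59 lies above the upper band, which ends at 0.85, and the other 7 lie inside it.

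The promoter windows of the 2 genes past 1.5-fold are shown for reference, from 250 bases before the start of transcription to 50 after it, from RefSeq on GRCm38.p6. The window of Xpo1 is chr11:23255791-23256090 on the plus strand and that of Xpo6 chr7:126200452-126200751 on the minus strand. Capitals mark matches on either strand to CCAAT, the CCAAT box bound by NF-Y, and to GGGCGG, the GC box bound by Sp1, and no matches overlap.
Xpo1: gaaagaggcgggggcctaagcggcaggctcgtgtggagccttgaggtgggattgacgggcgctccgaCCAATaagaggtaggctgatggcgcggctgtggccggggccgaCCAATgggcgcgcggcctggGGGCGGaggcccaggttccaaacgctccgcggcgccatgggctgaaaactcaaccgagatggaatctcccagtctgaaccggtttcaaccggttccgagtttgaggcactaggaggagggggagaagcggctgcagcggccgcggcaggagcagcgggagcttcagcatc
Xpo6: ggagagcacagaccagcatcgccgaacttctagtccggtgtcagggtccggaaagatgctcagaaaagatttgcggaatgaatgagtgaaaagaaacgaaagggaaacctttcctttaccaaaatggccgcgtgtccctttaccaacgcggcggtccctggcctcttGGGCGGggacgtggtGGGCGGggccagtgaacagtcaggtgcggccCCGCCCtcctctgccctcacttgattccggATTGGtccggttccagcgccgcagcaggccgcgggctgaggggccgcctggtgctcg
The CCAAT matches of Xpo1 begin 183 and 140 bases before the start, both on the strand of the gene, and its GC box 120 bases before it. Xpo6 has 1 CCAAT match, 7 bases before the start on the opposite strand, and 3 GC boxes, 83, 68 and 37 bases before it. Of 32851 such windows in the table, 37.4% hold CCAAT and 35.7% hold GGGCGG. Neither window holds TGACGTCA, the cAMP response element found in 1.79% of windows, or CACGTG, the E-box found in 7.15%. Windows were matched for 4 of the 8 members, and those of Xpo5 and Xpot hold 1 GC box each and no CCAAT. The window of Xpot also holds 1 E-box, 231 bases before the start, the only one among these 4 windows.

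The Xpo1 difference was also present at equal depth. Xpo1 was found in 33.5% of DMSO cells (584 cells) and 54.6% of selinexor cells (1074 cells), although selinexor cells had fewer UMIs. With every cell thinned to 2000 UMIs, leaving out 314 DMSO and 783 selinexor cells below that, the expected share with an Xpo1 UMI was 11.1% and 31.6%. The thinned shares of Xpo6 were 5.95% and 8.70% (19.5% and 22.6% unthinned), those of Xpo7 3.52% and 5.11% (13.8% and 14.9%), and those of Cse1l 3.78% and 3.96% (15.03% and 13.01%). Every nucleated cell type is expected to express these genes, so no class of cells gives a level of free RNA to set beside these shares.

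In each of 5 ranges of UMIs per cell, Xpo1 was higher in selinexor cells, and the intervals of its levels did not overlap. Below 2000 UMIs the level was 90.3 CPM in 314 DMSO cells (34 UMIs) and 296.1 CPM in 783 selinexor cells (257 UMIs), a log2 ratio of 1.71 (1.19 to 2.27). From 2000 to just under 5000 UMIs it was 50.1 and 214.7 CPM, a log2 ratio of 2.10 (1.65 to 2.57), and from there to 10000 UMIs 51.8 and 177.8 CPM, a log2 ratio of 1.78 (1.53 to 2.03). The deepest ranges had smaller ratios: 1.40 (1.26 to 1.54) from 10000 to 20000 UMIs, on 73.5 and 193.9 CPM, and 1.46 (1.10 to 1.84) at 20000 and over. The summed other 7 genes had log2 ratios of 0.17 to 0.46 across the same ranges, and in 5 of 5 ranges the interval of the difference between Xpo1 and that sum lay above 0.

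The other genes followed depth in different ways. Cse1l was higher in deeper cells of both libraries, at 14.2, 28.2 and 35.2 CPM in the 3 ranges from 5000 UMIs upward with DMSO and at 15.4, 30.1 and 37.7 CPM with selinexor. Xpo6 had its widest gap in cells under 2000 UMIs, 23.9 against 63.4 CPM on 9 and 55 UMIs (log2 ratio 1.41, 0.38 to 2.61), and a small one from 2000 to 5000 UMIs, 50.1 against 59.6 CPM (0.25, -0.33 to 0.83). Below 5000 UMIs per cell Xpo5, Xpot and Cse1l had at most 14 UMIs in any range and library, too few to place them.

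**Figure D3:**
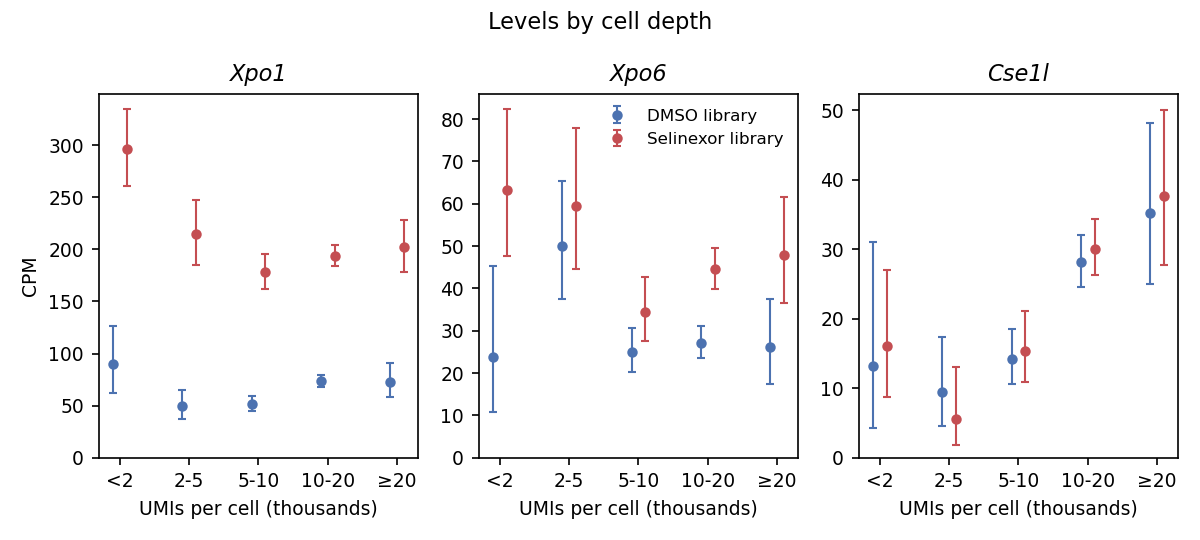
Level in CPM of Xpo1, Xpo6 and Cse1l in cells grouped by UMIs per cell, DMSO library in blue and selinexor library in red, with 95% Poisson intervals; the vertical scales differ. Xpo1 is higher in selinexor cells in all 5 ranges, while the Cse1l intervals overlap in all 5.

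Cells of both libraries were clustered together without the 8 genes, which gave 14 clusters. Named from fixed markers, clusters 0, 1 and 13 were late neutrophil-like, 5, 6 and 8 intermediate neutrophil-like, 10 early neutrophil-like, 3 monocyte-like and 12 dendritic cell-like. Fn1 and the macrophage gene Mrc1 both lead cluster 3. The rest stayed unnamed: cluster 2 led by the stefin Csta2 and Dmkn, the cycling cluster 4 led by Prc1 and Top2a, cluster 7 led by Ccl17, H2-Ab1 and C1q genes, cluster 9 led by Mcpt8 and Ly6d, and the low-UMI cluster 11. Clusters 2, 3, 12 and 13 had under 20 cells in 1 library and give no ratio, and cluster 11 had under 20 Xpo1 UMIs. Cluster 2 held 21.3% of DMSO and 0.610% of selinexor cells and cluster 3 0.459% and 17.5%, so state and library cannot be told apart in them. In cluster 9 the libraries held unlike cells: its 27 DMSO cells had 402 basophil or mast cell marker UMIs (6 of 6 markers) and its 125 selinexor cells 0, and the median depth was 2070 and 9836 UMIs. Its ratio is therefore given apart.

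Xpo1 was higher in selinexor cells in 8 of 8 clusters other than cluster 9 that could be compared, each with an interval above 0. The largest ratios were in neutrophil-like clusters with few cycling cells. In cluster 1 the level was 41.6 CPM in DMSO and 218.8 CPM in selinexor cells (49 and 88 UMIs), a log2 ratio of 2.40 (1.88 to 2.93) and number 8 of 3195 genes, of which 26.4% had an interval above 0. In cluster 6 it was 44.7 and 203.4 CPM (11 and 192 UMIs), log2 ratio 2.18 (1.31 to 3.21), with 9.25% of genes above 0. In cluster 0 it was 83.1 and 311.2 CPM (39 and 233 UMIs), log2 ratio 1.91 (1.41 to 2.43), with 18.0% of genes above 0. These 3 clusters held 2.39% to 18.4% cells with a UMI of the proliferation genes Mki67 or Top2a in the DMSO library, against 94.4% to 99.4% in clusters 4, 5 and 10. The cells of cluster 1 differed between the libraries, with a median depth of 4505 UMIs in DMSO and 2275 in selinexor cells. Its late neutrophil markers summed to 4072 and 7310 CPM and its intermediate ones to 18470 and 12300 CPM. The part of these differences in its Xpo1 ratio was not tested.

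Ratios were smaller in clusters 4, 5 and 10, the richest in cycling cells, but did not follow the cycling share throughout. In the DMSO library that share was 54.3% in cluster 7 (log2 ratio 1.61) and 46.7% in cluster 8 (1.00). The cycling cluster 4 had 102.9 CPM in DMSO cells, the highest DMSO level, and 210.0 CPM in selinexor cells (268 and 373 UMIs), a log2 ratio of 1.03 (0.80 to 1.26), with 22.3% of genes above 0. Cluster 5 had 57.4 and 127.0 CPM (87 and 179 UMIs), log2 ratio 1.15 (0.77 to 1.53), with 9.61% of genes above 0, and early neutrophil-like cluster 10 had 54.2 and 112.9 CPM (58 and 53 UMIs), log2 ratio 1.06 (0.49 to 1.62), with 6.95% above 0. The intervals of clusters 1 and 4 do not overlap, a difference that 1 library per group cannot test.

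Of the others, cluster 7 stood at 80.7 and 245.9 CPM (191 and 143 UMIs), a log2 ratio of 1.61 (1.29 to 1.93), with 10.5% of genes above 0. Its macrophage markers summed to 1232 CPM with DMSO and 392 CPM with selinexor, and the part of this shift in the ratio was not tested. In cluster 4 the dendritic cell markers likewise differed, 674 against 213 CPM. There monocyte markers summed to 1206 and 2764 CPM and early neutrophil markers to 276 and 106 CPM. Clusters 5, 10 and 6 also held shifts. Early neutrophil markers summed to 1717 and 871 CPM in cluster 5 and monocyte markers to 1588 and 3874 CPM in cluster 10. Late neutrophil markers summed to 1790 and 3211 CPM in cluster 6. The part of these shifts in the Xpo1 ratios was not tested. Cluster 8 had the lowest level in both libraries, 34.0 CPM in DMSO and 68.0 CPM in selinexor cells (22 and 43 UMIs), log2 ratio 1.00 (0.23 to 1.81), with 8.27% above 0. Cluster 9, with its unlike cells, stood at 51.3 CPM on only 5 DMSO UMIs and 156.5 CPM with selinexor, log2 ratio 1.61 (0.36 to 3.25), with 8.96% above 0. With clusters centred per library, which shares cells out differently, the interval of Xpo1 lay above 0 in 9 of 9 clusters as well, with log2 ratios from 0.93 to 2.54. The share of all genes with such an interval in these centred clusters, from the first to the ninth, was 19.1%, 13.6%, 15.9%, 30.3%, 20.7%, 8.05%, 21.9%, 13.9% and 9.38%.

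**Figure D4:**
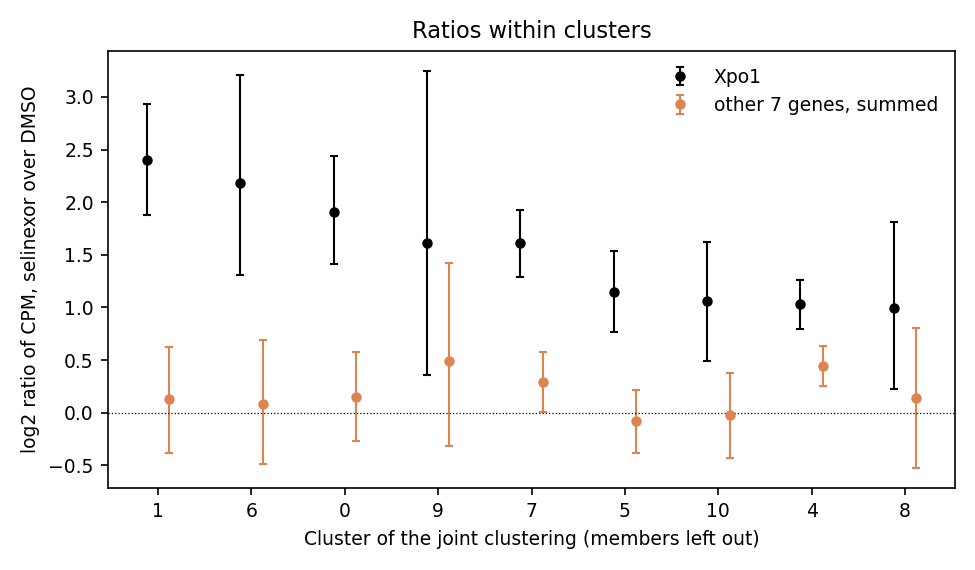
Log2 ratio of CPM, selinexor over DMSO, within 9 clusters, for Xpo1 (black) and for the other 7 genes summed (orange), with 95% counting intervals and clusters ordered by the Xpo1 ratio. Xpo1 runs from 2.40 in cluster 1 to 1.00 in cluster 8, and the sum from -0.08 to 0.49; the highest sum is that of cluster 9, whose DMSO and selinexor cells are unlike.

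Levels of Xpo1 differed between clusters in both libraries. Over the 10 DMSO clusters with at least 30 cells they ran from 34.0 CPM (cluster 8) to 102.9 CPM (cluster 4). Over the 12 selinexor clusters they ran from 68.0 CPM (cluster 8) to 311.2 CPM (cluster 0). Of these 12, 11 lay above every DMSO cluster, so the ranges overlapped through cluster 8 only. Monocyte-like cluster 3, almost wholly selinexor cells, had 235.2 CPM (220.8 to 250.3) and held 38.7% of the library's Xpo1 UMIs beside 32.9% of all its UMIs. Cluster 2, almost wholly DMSO cells, had 51.3 CPM (44.3 to 59.1).

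For the other 7 genes summed, 2 of the 8 clusters without cluster 9 had an interval above 0 and none below: cycling cluster 4 with a log2 ratio of 0.45 (0.25 to 0.64) and cluster 7 with 0.29 (0.01 to 0.57). The log2 ratio of Xpo1 exceeded that of the sum in 8 of 8, by 0.58 to 2.27, and in 7 of 8 the interval of the difference lay above 0. The exception was cluster 8 (0.86, -0.11 to 1.83), with few UMIs, and in cluster 9 the difference was 1.12 (-0.40 to 2.64). Within clusters, single genes could be compared where they had 20 UMIs, cluster 9 included, where none of the 7 had an interval above 0. Xpo6 had one in 3 of 8 clusters, namely 1, 4 and 7, where 26.4%, 22.3% and 10.5% of all genes had one too, with the largest log2 ratio in cluster 1, 1.09 (0.35 to 1.81), on 33.9 and 72.1 CPM. Xpo4 had one in 1 of 5 clusters and Cse1l in 1 of 5, both in cluster 4, at 0.75 (0.16 to 1.34) and 0.46 (0.02 to 0.89), again beside 22.3% of all genes. Xpo5, Xpo7, Xpot and Ranbp3 had none in the 4, 8, 6 and 8 clusters compared. With clusters centred per library these 4 had an interval above 0 in 1 of 5, 2 of 8, 1 of 5 and 2 of 8 clusters, so this count depends on the clustering, and all were in centred clusters where 13.6% to 21.9% of all genes had one.

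The genes also differed in the clusters where they were high. Cse1l was high in cycling cluster 4, at 36.1 CPM (29.2 to 44.2) in DMSO and 49.5 CPM (39.7 to 61.0) in selinexor cells, and low in late neutrophil-like cluster 1, at 7.63 CPM (3.49 to 14.5) in DMSO cells and 0 UMIs in 145 selinexor cells. Xpo5 reached 29.0 CPM (19.7 to 41.1) in early neutrophil-like cluster 10 of the DMSO library, against 11.0 CPM (5.87 to 18.9) in cluster 1. Xpo6 was low in intermediate neutrophil-like cluster 8, at 15.5 CPM with DMSO and 14.2 CPM with selinexor, and in the selinexor library highest in late neutrophil-like cluster 1, at 72.1 CPM (48.3 to 103.6). Xpo7 in the selinexor library was highest in cluster 7 with 41.3 CPM (26.4 to 61.4) and in cluster 3 with 37.7 CPM (32.0 to 44.0), which did not differ beyond counting error.

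Cells holding Mki67 or Top2a, 715 DMSO and 721 selinexor cells with medians of 11650 and 11600 UMIs, had an Xpo1 log2 ratio of 1.31 (1.18 to 1.44), on 78.0 and 193.1 CPM. Cells without either, 1028 and 1246 with medians of 4569 and 1416 UMIs, had 2.13 (1.93 to 2.33), on 48.7 and 212.8 CPM. The DMSO level was thus lower in cells without them, and the selinexor level was not. Cell depth moves with this split, and its part in the result was not tested. In the cells with either gene Cse1l stood at 29.5 and 28.9 CPM, a log2 ratio of -0.03 (-0.29 to 0.23), and in the cells without at 13.6 and 18.9 CPM, a log2 ratio of 0.47 (0.01 to 0.94).

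The rest of the nuclear transport machinery was described from lists. Of 16 measured importins, the inward carriers, 3 were at least 1.5-fold higher and 1 lower, with a median log2 ratio of 0.45, beside 12.4% and 4.71% of all measured genes. The median was 0.18 with every cell weighted equally and 0.14 without clusters with under 20 cells in a library. In that last setting 1 was higher and 2 lower, beside 6.30% and 6.17% of all genes. The higher ones were Tnpo2, which carries RNA-binding proteins (166 and 301 UMIs, log2 ratio 1.01), Kpna4, an importin alpha (478 and 740 UMIs, 0.78), and Kpnb1, the main importin beta (932 and 1269 UMIs, 0.59), which fell under 1.5-fold with TMM scaling (0.46). Kpna2, an importin alpha of proliferating cells, had 144 and 71 UMIs, a log2 ratio of -0.87. In cells without Mki67 or Top2a, Kpna2 did not meet the UMI minimum, so no ratio is given for them. All 4 lie below the Xpo1 ratio. The 6 measured Ran cycle genes had a median of 0.21. Past 1.5-fold were 0 either way, beside 12.4% of all genes higher and 4.71% lower. With every cell weighted equally their median was 0.024, with 1 lower, beside 7.95% of all genes. Without clusters with under 20 cells in a library it was -0.049. Ran itself, the GTPase that drives transport, stood at -0.36 on 7140 and 5012 UMIs.

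Among 8 listed genes tied to exportin 1, 0 passed 1.5-fold, beside 12.4% of all measured genes higher and 4.71% lower. Their median log2 ratio was 0.08. The pore proteins Nup214 (0.23) and Nup88 (0.25), where exportin 1 docks, lay above 0, as did the pore proteins Nup98 (0.38) and Ranbp2 (0.36). Ranbp2 is also in the Ran cycle list. The intervals of these pore proteins lay wholly above 0, as did those of 36.4% of all measured genes. The other 4 lay below 0: the ribosome export adaptor Nmd3 (-0.06), the snRNA export adaptor Phax (-0.07), the snRNP import adaptor Snupn (-0.22) and the ribosome assembly factor Ltv1 (-0.24, -0.45 to -0.03), the only one of them with an interval wholly below 0. Of 23 nucleoporins in a separate list 0 passed 1.5-fold (median 0.16), beside the same shares of all genes. Without cells holding Mki67 or Top2a, 6 of 21 nucleoporins were higher, beside 17.4% of all genes. With cells thinned to 2000 UMIs 2 of 23 were higher, beside 13.3%, so this count depends on the setting. Of 14 measured genes of mRNA export by Nxf1, a route without exportins, 0 passed 1.5-fold (median -0.05). Beside them, 12.4% of all genes were higher and 4.71% lower. With TMM scaling 1 of the 14 was lower, beside 7.77% of all genes. With every cell weighted equally 1 was higher and 1 lower, beside 15.5% and 7.95%. In the microRNA processing list around Xpo5, 2 of 7 were at least 1.5-fold higher, the nuclease Drosha (0.63) and the effector Ago2 (0.59), beside 12.4% of all genes, with a median of 0.45. With TMM scaling these stood at 0.50 and 0.45 and 0 of 7 passed, beside 7.74% of all genes, and without clusters with under 20 cells in a library the median was 0.14. Proliferation genes had a median of -0.27, with 2 of 16 at least 1.5-fold lower, the cell cycle kinase Cdk1 (-0.60) and cyclin Ccna2 (-0.59), beside 4.71% of all genes. The median was -0.0018 and -0.037 at the same mix of joint or centred clusters. There 0 of 16 were lower, beside 5.36% and 5.04% of all genes. With every cell weighted equally the median was -0.53, with 7 of 16 lower, beside 7.95% of all genes. In cells without Mki67 or Top2a, Cdk1 stood at 0.53.

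The genes whose level most resembled Xpo1 over the 22 cluster sums (10 DMSO, 12 selinexor) were Arrdc3, an arrestin-domain gene (Pearson r = 0.86), the kinase Pim1 (0.85), the channel kinase Trpm7 (0.84), Prrc2b (0.84) and the antiproliferative Btg3 (0.83), out of 5485 candidates that leave out the members. Sums of 1 library share its cells and depth, so a gene that differs between the libraries scores high. Arrdc3 had 65 and 522 UMIs and Btg3 229 and 633 UMIs, log2 ratios of 3.15 and 1.61, while Pim1, Trpm7 and Prrc2b stood at 0.85, 0.55 and 0.55. Cse1l was most like the nucleoporin Nup205 (r = 0.95) and the mitochondrial import gene Timm50 (0.93). Xpo5 was most like Prpf19 (0.90) and the cap-binding gene Ncbp2 (0.89), and Xpo6 like Gxylt1 (0.88) and Poldip3 (0.87). Xpo4 was most like Akap8 (0.92) and Zcchc17 (0.89), and Xpo7 like Fam120a and Btaf1 (0.89 each). Xpot was most like Caprin1 and Trp53 (0.89 each), and Ranbp3 like Atp13a3 (0.89) and 2610507B11Rik (0.81). Many of these sums hold few member UMIs, so counting error enters these correlations. Xpo4 had 0 UMIs in DMSO clusters 6 and 11. Its highest level, 56.3 CPM in selinexor cluster 11, rested on 3 UMIs.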

How the data were processed

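Single-cell RNA sequencing of 2 cultures was used. The deposited matrices hold raw UMI counts. The authors obtained them using Cell Ranger 6.1.2, per the file headers, with mm10 as the build, per the submitters' processing notes. For the annotation release, nothing is stated in those notes. The 12 multiplexing tags were kept out of gene totals. The most abundant tag was the same in all 1784 DMSO and in all 1989 selinexor barcodes, and 0 barcodes were shared.

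Cells needed 200 genes and mitochondrial UMIs under 10%. No doublet caller was run, and leaving out the 5% of cells with the most UMIs was an alternative. Counts were summed per library, cluster or depth range and scaled to CPM. Ratios have exact conditional binomial intervals, levels exact Poisson intervals, shares Clopper-Pearson intervals, and differences between log2 ratios a normal approximation on the log odds ratio. A gene with 0 UMIs in 1 library was set to 3 counts for counts over all genes. Thinned shares are expected values under sampling without replacement. Ratios within states needed 20 cells per library and 20 UMIs. Interval functions were tested on simulated data.

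Clusters came from scanpy 1.11.5 and leidenalg 0.10.2 (2000 variable genes without the members, 30 principal components, 15 neighbours, resolution 1.0). Cluster names went to the best-scoring marker class when 3 or more of its markers were 2-fold higher, had 10 UMIs and were in 10% of the cells, a scoring set after the clusters were seen. TMM factors came from edgeR 4.0.16. Coordinates are from GENCODE M21, matched by Ensembl identifier for 8 of 8 members. Members, lists and markers were chosen with earlier results of these data known. Named genes are the members, up to 4 genes per list past 1.5-fold (largest first), a few list genes with textbook ties to exportin 1 or Ran that were picked after their values were seen, and the 5 (Xpo1) or 2 (other members) genes of most similar log2(CPM + 10) over cluster sums of at least 30 cells, among genes with at least 500 UMIs.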

Additional observations from a re-analysis of the deposited data

How the results depend on the processing

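Xpo1 was higher in the selinexor library under all 16 alternatives, although changes to the UMI minimum cannot move its ratio. Its log2 ratio ran from 1.36 to 2.13 against 1.59. Values outside its counting interval were 1.46 with TMM scaling, 1.44 with median-of-ratios scaling, 1.82 with every cell weighted equally, 1.42 with the same cell mix from the joint clustering, 2.13 without cells holding Mki67 or Top2a, and 1.36 without clusters with under 20 cells in a library. Members at least 1.5-fold higher fell from 2 to 1, with Xpo6 lost, under TMM scaling, median-of-ratios scaling, thinning to 2000 UMIs, the same cell mix from the joint clustering, and without clusters with under 20 cells in a library. Members at least 1.5-fold lower were 0 under all 16. The scaling to library totals leaves the median gene at 0.14, and TMM brings it to 0.0045 and turns the 12.4% higher and 4.71% lower genes into 7.74% and 7.77%. The log2 ratio of Xpo1 exceeded that of each other member under all 16. Not all of them could alter this. Changes to the UMI minimum leave every member ratio as it was, and TMM and median-of-ratios scaling leave the differences between members as they were. The sign of Cse1l (-0.13 to 0.47) and Xpot (-0.11 to 0.29) changed between settings. Leaving out cells under 2000 UMIs and leaving out clusters with under 20 cells in a library were chosen after the data were seen. So was setting cluster 9 apart, which leaves Xpo1 intervals above 0 in 8 of 8 clusters, against 9 of 9 with it. No paired analysis was possible because each group holds 1 library, and for the same reason no replicate could be left out. Depth limits Xpo4, Xpo5, Xpo7, Xpot, Cse1l and Ranbp3 within clusters, where many had under 20 UMIs.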
